A study of Mus musculus with 11 samples.

Results

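RNA from maxillary molar tooth germs at embryonic day 14.5 (E14.5) was compared between 3 compound mutant libraries and 4 wild-type (WT) libraries, which are 7 of the 11 libraries of the series. The libraries were chosen by their genotype labels, and all 16755 genes of the deposited table were examined. The compound mutant lacks Cilk1 (ciliogenesis-associated kinase 1) on both alleles, through germline removal of exon 6 with EIIa-Cre, and is also homozygous for a 70 kb deletion from PCS1 to MRCS1, which holds enhancers of Shh used in the oral epithelium. The WT embryos carry neither change. The remaining 4 libraries are Cilk1-/- without the enhancer deletion. The mice were on a C57BL/6 background, and the labels call the embryos littermates without saying which libraries share a litter. The sexes were mixed. Each biological replicate held n = 6, and whether 6 counts germs or embryos is not stated. No library carries the PCS1-MRCS1 deletion alone, so the share of each allele in a difference between compound mutant and WT cannot be told apart here. Values are the deposited ones, whose unit is not stated. They are treated here as log2 of an expression value plus 1, possibly FPKM (fragments scaled to gene length and library size), which is an assumption that genes with a value below 0 in some library do not meet. On such a scale a difference of 1 means a doubling for a well expressed gene and understates the change of a gene with a low value, and levels given as linear rest on the same assumption.

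Hedgehog (Hh) signaling starts when a secreted ligand, here Sonic hedgehog (Shh) from the dental epithelium, binds Patched receptors and frees Smoothened, which then acts through Gli transcription factors inside the primary cilium. Ptch1, Hhip and Gli1 are transcribed in response to the pathway and are used as its readouts, and Ptch1 and Hhip in turn limit the signal. Cilk1 is a serine/threonine kinase at the tip of the cilium that regulates ciliary length and transport. In the molar germ, Hh, Wnt, BMP, FGF and Eda signals exchanged between epithelium and mesenchyme set the number and shape of teeth.

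The targeted gene was low in every compound mutant library. Cilk1 is listed under its older symbol Ick (GRCm38 chr9:78109192-78172107). Its values were 2.67, 2.65 and 2.60 in compound mutant replicates 1 to 3 and 3.47, 3.58, 3.45 and 3.6 in WT replicates 1 to 4. The groups did not overlap, and the difference was −0.89 (SE 0.0542, adjusted p = 6.22e-05, limma). RNA of the gene remained, and the table has no values per exon, so the deletion of exon 6 itself is not seen in it. Dental markers were present in all 7 libraries. The epithelial keratin gene Krt14 was between 7.79 and 8.18 in WT and at 6.83, 7.75 and 8.14 in the compound mutant, and the mesenchymal homeobox gene Msx1 was between 7.27 and 7.78 in WT and at 6.72, 7.67 and 6.80 in the compound mutant.

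Compound mutant replicate 1 stood apart from the other libraries. On the first principal component of all genes, which held 41.6% of the variance, it lay at −48.53, whereas the other 10 libraries ranged from −6.63 to 11.18. The next component (21.8%) placed compound mutant replicate 3 at −28.90. Read depth is unknown because counts were not used here. WT and Cilk1-/- libraries of the same number deviated from their genotype means in opposite directions, with correlations from −0.74 to −0.89 over the genes, whose values are not independent of each other. The 11 libraries are thus not independent in the deposited values, and the p-values below may be too small. It is not stated whether the libraries of a group came from separate litters, so the p-values measure the spread between these libraries, which may be technical. The labels carry one of 2 wordings of the extraction protocol, taken here as library sets. WT replicate 4 has the wording of the compound mutant libraries, which names all 3 genotypes, and WT replicates 1 to 3 have the other. Calls that were lost without compound mutant replicate 1 are given with the value without it.

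In the compound mutant, 106 genes fell and 103 rose against WT, where a call required a fold change of 1.5 or more together with an adjusted p-value below 0.05. The transcription factor Foxf2, the Hh receptor Ptch1 and the Hh effector Gli1 were among the lowest, and the neuronal tubulin Tubb3 and the cell cycle inhibitor Cdkn1a among the highest. The called genes were 1.25% of all genes, 0.633% as lower and 0.615% as higher. The median log2 fold change of all genes was −0.0016, and 50.6% of the genes had a lower mean in the compound mutant. The libraries of the groups did not overlap for 203 of the 209 called genes, against 18% of all genes. The calls were made on these same libraries, so this separation is not further evidence for them. At any fold, 1102 genes (6.58%) had an adjusted p-value below 0.05. Without compound mutant replicate 1, 99 genes were lower (0.591%) and 72 higher (0.43%), together 1.02% of all genes. Of the calls without replicate 1, 120 had also been made with it, 72 lower and 48 higher, so that 89 of the 209 calls were lost.

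The number of calls differed between fits, and the cause was not tested. A fit of only the 7 libraries compared called 22 lower (0.131%) and 12 higher (0.0716%) genes, 0.203% in all, each of them among the 209. With the library set as a term, 13 were lower and 5 higher. The log2 fold change of Ptch1, for example, was −1.66 in the former and −1.69 in the latter. Against Cilk1-/-, 65 genes were lower (0.388%) and 26 higher (0.155%) in the compound mutant, 0.543% in all.

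**Figure D1:**
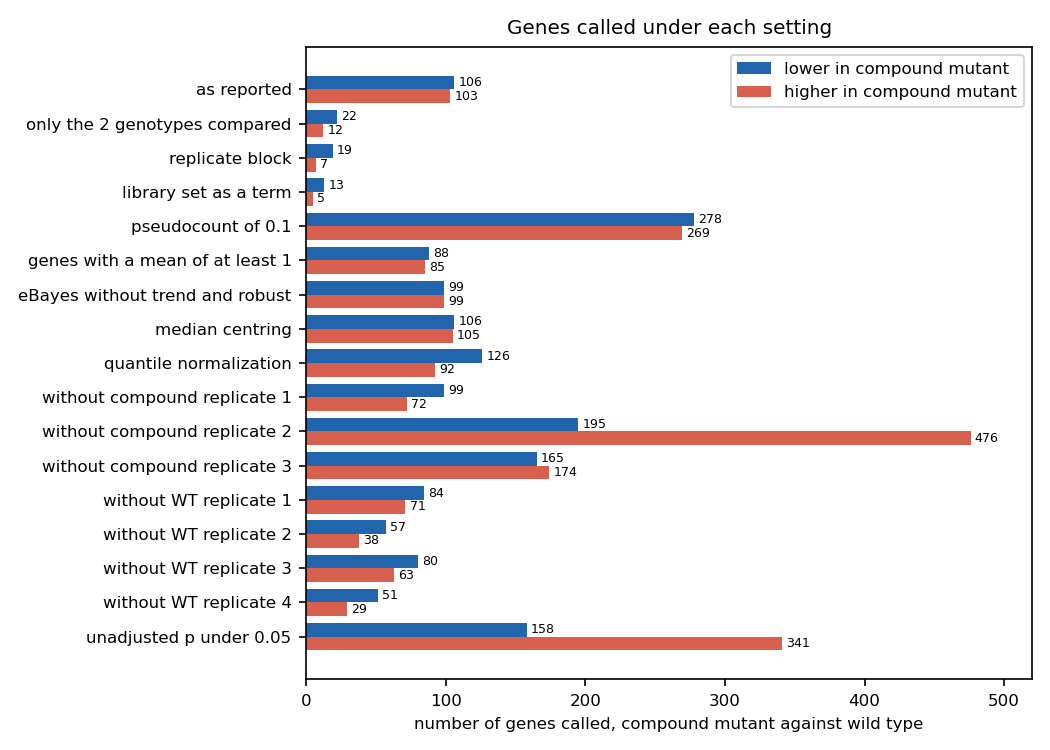
Number of genes called lower (blue) and higher (red) in the compound mutant than in WT, as reported and under each other setting, with the count beside each bar. The counts run from 13 and 5 with the library set as a term to 195 lower without compound mutant replicate 2 and 278 lower with a pseudocount of 0.1, and to 476 higher without compound mutant replicate 2. The setting with no fold change limit is not drawn.

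Hh target genes were lower as a group. Of 15 measured target genes, 8 fell, 0 rose and 7 did not pass, where 0.633% of all genes fell. Their median log2 fold change was −0.86, and −0.69 without compound mutant replicate 1, where 7 fell. Of the 15 genes, 14 had a lower mean. The list holds genes that the study chose on these samples, so its direction is not independent evidence. The summed level of the list on the linear scale was 311, 437 and 406 in compound mutant replicates 1 to 3 and between 619 and 652 in WT, and between 407 and 462 in Cilk1-/-.

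Ptch1, the receptor that both binds Shh and is induced by it, was 3.82, 4.45 and 4.95 in compound mutant replicates 1 to 3 and 5.96, 6.16, 5.98 and 6.18 in WT replicates 1 to 4. Every compound mutant library was below every WT library, and replicate 1 was the lowest. Its log2 fold change was −1.66 (SE 0.198, adjusted p = 0.00284, limma) and −1.37 without replicate 1 (adjusted p = 0.00115). Gli1, the transcriptional effector whose own transcription depends on the pathway, was 4.51, 5.48 and 5.36 against 6.68, 6.53, 6.42 and 6.55 in WT. It fell by 1.43 (SE 0.193, adjusted p = 0.00500, limma), and had −1.13 without replicate 1. Hhip, a membrane protein that sequesters Hh ligands, was 1.23, 1.38 and 1.57 against 2.28, 2.16, 2.51 and 2.38, with a log2 fold change of −0.94 (SE 0.107, adjusted p = 0.00245, limma). For Hhip the compound mutant libraries spanned 1.23 to 1.57, so that replicate 1 stayed close to the others. Fewer Hh-responding cells and less RNA per cell cannot be told apart in such bulk samples.

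Foxf2, a forkhead factor of the facial mesenchyme, had the most negative log2 fold change among the Hh targets. Its values were 2.76, 3.6 and 3.37 in the compound mutant and 4.81, 4.84, 5.06 and 5.03 in WT, and it fell by 1.69 (SE 0.178, adjusted p = 0.00198, limma). It was still called in the fit of only the 2 genotypes (adjusted p = 0.0341) and with the library set as a term (adjusted p = 0.0467). Ptch1, Gli1 and Sostdc1 were not called in either fit, with an adjusted p from 0.0512 to 0.0882 (limma). The noncoding gene 1700018A04Rik, named after its values were seen, lies 23 bp from Foxf2 on the opposite strand and was lower too, by 0.85 (adjusted p = 0.0259, limma), with 0.74, 1.07 and 1.29 against 1.75, 1.89, 1.71 and 2.18, and it was not called without replicate 1 (adjusted p = 0.0600).

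A few other forkhead genes fell as well. Of 20 measured forkhead genes, Foxf2 included, 4 fell and 0 rose, against 0.633% of all genes that fell. The median of the list was −0.13, and −0.03 without compound mutant replicate 1, where 3 fell. Foxf2, Foxl1 and Foxd1 are also among the 8 Hh targets that fell, so these calls count in both lists. Foxl1, a mesenchymal Hh target, was 0.40, 0.98 and 0.37 in the compound mutant and 1.63, 1.37, 1.29 and 1.55 in WT, a fall of 0.88 (adjusted p = 0.0130, limma). Foxd1 was 1.13, 1.63 and 0.74 against 1.94, 2.05, 2.0 and 2.10, with a log2 fold change of −0.86 (adjusted p = 0.0293) that was not called without replicate 1 (adjusted p = 0.0590). Foxe1, an epithelial factor needed for palate and thyroid development, was 1.53, 2.31 and 1.59 against 2.92, 2.53, 2.63 and 2.80, and fell by 0.91 (adjusted p = 0.0202, limma). Foxf1, the close relative of Foxf2, was 4.51, 5.54 and 4.82 against 5.53, 5.53, 5.28 and 5.59, so that replicate 2 lay among the WT libraries and the gene was not called (log2 fold change −0.53, adjusted p = 0.122).

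The remaining Hh targets were uneven. Hsd11b2, which inactivates glucocorticoids, was nearly the same in the 3 compound mutant libraries, at 0.69, 0.65 and 0.66, and between 1.20 and 1.51 in WT, a log2 fold change of −0.68 (SE 0.0944, adjusted p = 0.00569, limma). These 3 libraries were thus closer together than the WT libraries. Bcl2, an inhibitor of apoptosis, was below WT in every compound mutant library but changed by less than the fold limit (−0.33, adjusted p = 0.0369, limma). Cyclin D1 (Ccnd1) was the one target with a higher mean, at 5.66, 5.31 and 5.97 against 5.08, 4.92, 5.33 and 4.89, and missed the threshold (log2 fold change 0.59, adjusted p = 0.0519).

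**Figure D2:**
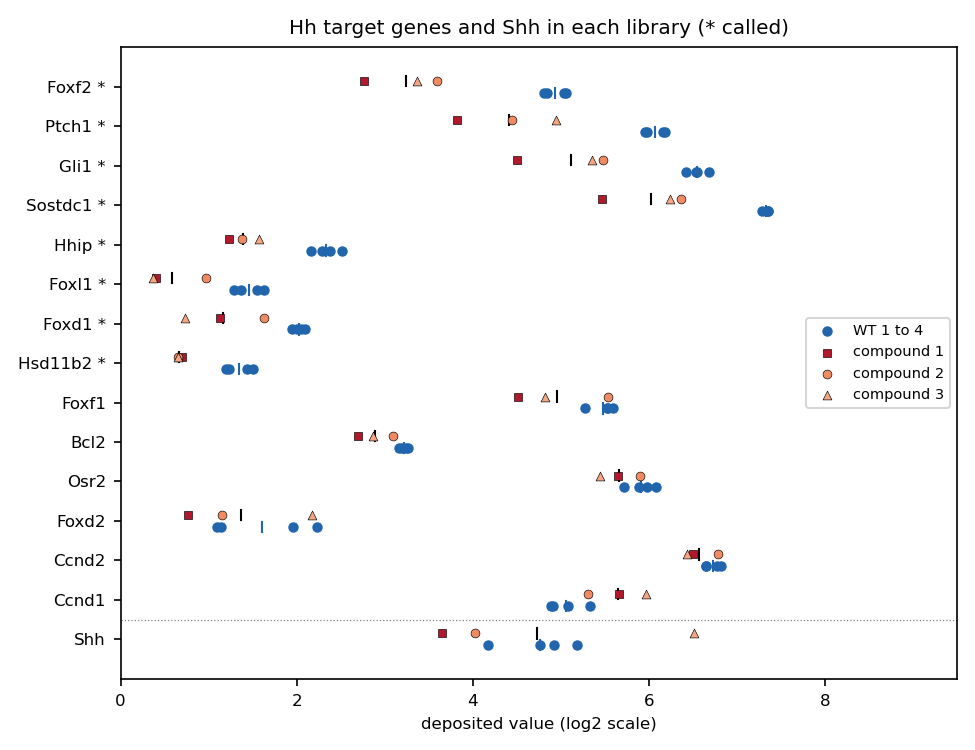
Deposited value (log2 scale) of 14 of the Hh target genes, ordered by log2 fold change, and of Shh, in each library. Blue points are WT libraries, red to orange symbols are compound mutant replicates, short lines are group means and a star marks a called gene. For Ptch1, Gli1, Foxf2, Sostdc1 and Hhip every compound mutant library lies below every WT library, whereas Shh spans 3.66 to 6.51 in the compound mutant around the WT range of 4.18 to 5.18.

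Shh itself differed more between the compound mutant libraries than between the groups. It was 3.66, 4.02 and 6.51 in compound mutant replicates 1 to 3, and 4.76, 4.93, 5.18 and 4.18 in WT. Replicates 1 and 2 were below all WT libraries and replicate 3 was above them. The log2 fold change was −0.03 (SE 0.568, adjusted p = 0.982, limma), and 0.51 without replicate 1. The genes of Hh release, reception and transduction, Shh included, gave 0 called of 21 measured, with a median of −0.02. Smo was between 5.90 and 6.03 in the compound mutant and between 6.00 and 6.19 in WT, and the co-receptor Boc was 5.03, 4.56 and 3.83 against 4.46, 4.39, 3.99 and 4.37. The ciliary receptor Gpr161, which holds the pathway down, was 2.77, 2.68 and 3.03 against WT values of 3.04 to 3.21, under the fold limit (−0.32, adjusted p = 0.0405, limma). The 50 genes of ciliary transport and the transition zone gave 0 calls as well, with a median of −0.01. Since 1.25% of all genes were called, 0 calls in lists of 21 and 50 genes do not show that these genes were unchanged.

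Among 8 measured genes at and around Shh on chromosome 5, Rnf32 was the one called, where 1.25% of all genes were called. Rnf32 (chr5:29195992-29228457), a ring finger gene 729 kb from Shh, was 2.10, 1.90 and 2.71 in the compound mutant and 1.32, 1.14, 1.55 and 1.17 in WT. All compound mutant libraries were above all WT libraries, with a log2 fold change of 0.94 (SE 0.177, adjusted p = 0.0177, limma) and of 1.01 without replicate 1 (adjusted p = 0.0258). It was not called in the fit of only the 2 genotypes (adjusted p = 0.0960), and Cilk1-/- libraries lay between 1.42 and 1.75. Its neighbour Lmbr1 (chr5:29229802-29378390), which carries the limb enhancer of Shh in an intron, was 2.12, 2.12 and 2.26 against 2.21, 2.20, 2.07 and 1.98 and was not called (log2 fold change 0.05, adjusted p = 0.743). Positions are from GENCODE vM21. The place of the 70 kb deletion among these genes is not given in the sources used here.

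Some secreted Wnt inhibitors fell, and Wnt feedback genes did not pass with all libraries in the fit. Of 13 measured inhibitors, 4 fell and 0 rose, against 0.633% of all genes that fell, with a median of −0.14. Sostdc1, a BMP and Wnt antagonist that limits tooth number, was 5.46, 6.36 and 6.24 in the compound mutant and 7.36, 7.29, 7.34 and 7.35 in WT, and fell by 1.31 (SE 0.187, adjusted p = 0.00622, limma). The spread of the WT libraries was small (SD 0.0315, n = 4). Dkk2 was 3.36, 3.6 and 3.02 against 4.16, 3.92, 3.86 and 3.97, a fall of 0.65 (adjusted p = 0.0244, limma). In Cilk1-/- Dkk2 was between 3.97 and 4.38, and it was lower in the compound mutant than in Cilk1-/- (log2 fold change −0.89, adjusted p = 0.0125, limma). Frzb fell by 0.91 and Sost by 0.67 (adjusted p = 0.0406 and 0.0357, limma), and neither was called without replicate 1 (adjusted p = 0.10 and 0.0641).

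Of 16 Wnt feedback and readout genes 0 were called, and of 13 Wnt ligand genes 0. Without compound mutant replicate 1, 1 of the 16 was called lower, where 0.591% of all genes were. At 1.25% of all genes called, 0 calls in lists of this size do not show that the genes were unchanged. Axin2, a direct Wnt target, was 3.98, 4.45 and 4.34 against 4.32, 4.20, 4.05 and 4.16. Lef1, a Wnt effector of the dental epithelium and mesenchyme, was 4.19, 5.11 and 4.83 in the compound mutant, with replicate 1 below and replicates 2 and 3 above all WT libraries at 4.48, 4.69, 4.71 and 4.74. Its log2 fold change was 0.05 (SE 0.167, adjusted p = 0.865, limma), and 0.31 without replicate 1 (adjusted p = 0.0729). Nkd1, an intracellular feedback inhibitor, was above WT in each compound mutant library but under the fold limit (0.37, adjusted p = 0.0240, limma).

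BMP, activin and FGF genes split in both directions. Of 24 BMP and activin genes, 3 fell and 1 rose, where 0.633% of all genes fell and 0.615% rose. Inhba, the activin subunit made by dental mesenchyme, was 4.10, 4.62 and 4.38 in the compound mutant and 5.0, 5.15, 4.89 and 5.25 in WT, a fall of 0.71 (SE 0.123, adjusted p = 0.0133, limma). Without replicate 1 the difference was −0.58, just under the fold limit (adjusted p = 0.0237). In Cilk1-/- Inhba was between 5.11 and 5.38, and the compound mutant was below Cilk1-/- by a log2 fold change of −0.86 (adjusted p = 0.0101, limma). The secreted BMP antagonist Chrdl1 was 2.47, 2.47 and 1.63 against 2.94, 2.97, 2.68 and 3.09, and fell by 0.73 (adjusted p = 0.0493, limma).

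Bmp2, an enamel knot signal, was 2.77, 2.80 and 3.80 in the compound mutant and 2.10, 2.12, 2.34 and 2.12 in WT, and rose by 0.95 (SE 0.212, adjusted p = 0.0302, limma). Replicate 3 was the highest. Cdkn1a, which encodes the cyclin-dependent kinase inhibitor p21 and marks the enamel knot, was 5.28, 4.50 and 4.93 against 3.31, 3.98, 4.08 and 3.79, and rose by 1.11 (SE 0.208, adjusted p = 0.0176, limma), or 0.93 without replicate 1. Of 16 enamel knot and Eda pathway genes, Cdkn1a and Bmp2 rose and 0 fell, against 0.615% of all genes that rose. The list as a whole was high in replicate 3 alone among the 7 libraries, with a summed level of 122, 132 and 279 in compound mutant replicates 1 to 3 and of 119 to 160 in WT. Its median difference from the WT mean was −0.25, 0.01 and 0.78 in those replicates. Fgf4, a further enamel knot signal, was 1.01, 1.71 and 2.03 against 1.55, 1.32, 1.69 and 1.25 and was not called. In the FGF list, 1 of 20 genes fell and 1 rose, where 0.633% of all genes fell and 0.615% rose. Fgf7, a mesenchymal ligand, was 1.24, 1.45 and 1.05 against 1.89, 1.87, 1.92 and 1.79, and fell by 0.62 (SE 0.0881, adjusted p = 0.00622, limma). In Cilk1-/- Fgf7 lay between 1.84 and 1.94. Fgfr3 rose by 0.77 (adjusted p = 0.0434, limma), from values of 3.68 to 3.96 in WT to 5.05, 4.07 and 4.59. It was not called without replicate 1 (adjusted p = 0.0865).

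Genes of the hypoxia response and of glycolysis were higher as a group. The list was chosen with earlier results of these data known, so its direction is not independent evidence. All 30 measured genes had a higher mean in the compound mutant, where 49.4% of all genes did. Of the 30, 7 rose and 0 fell, against 0.615% of all genes that rose, and 17 had an adjusted p-value under 0.05 at any fold, where 2.82% of all genes did in that direction. The groups did not overlap for 18 of the 30 genes, against 18% of all genes. The median log2 fold change was 0.30, and 0.32 without compound mutant replicate 1, so the difference was as large without the library that stood apart. The summed level was 2924, 3609 and 2863 in compound mutant replicates 1 to 3, with replicate 2 the highest, and 2454, 2442, 2830 and 2473 in WT, with replicate 3 the highest.

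Cells short of oxygen stabilise HIF transcription factors, which bind the core ACGTG or GCGTG near target genes and raise glucose uptake, glycolysis and enzymes of collagen hydroxylation. The following promoter sequences (RefSeq, GRCm38) are shown for 3 of the called genes because ACGTG, in capitals on either strand, lies before the start site there.
Bnip3 (chr7:138909581-138909641, minus strand, motif at −107): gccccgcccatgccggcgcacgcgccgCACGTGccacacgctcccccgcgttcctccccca
Slc2a1 (chr4:119108681-119108741, plus strand, motif at −36): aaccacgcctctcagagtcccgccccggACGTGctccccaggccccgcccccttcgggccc
Ddit4 (chr10:59951925-59951985, minus strand, motif at −187): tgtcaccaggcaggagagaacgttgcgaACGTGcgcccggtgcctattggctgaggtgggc
In Bnip3 the motif is part of CACGTG, which reads the same on both strands. ACGTG was found in 7 of 7 promoter windows of the called genes of the list in the RefSeq table and in 14 of 32 windows (43.8%) of its genes that were not called. It was in 19.6% of all 32851 windows of that table and in 23.8% of those of measured genes, in 34.1% of those of all called higher genes and in 12.8% of those of all called lower genes. GCGTG was in 6 of 7, in 16 of 32 and in 47.4% of the windows of measured genes. The Gli motif GACCACCCA was in 0 of 4 windows of called Hh targets and in 0.253% of all windows. Only 4 of the 8 called targets had a window, and for so rare a motif 0 of 4 says nothing about these genes. Both strands were searched. A match describes the letters of the window and is not a measured site. The list was chosen for this response with earlier results known, and its called genes have only 7 windows. Whether HIF acted in these germs was not tested.

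Bnip3, a mitochondrial protein of mitophagy and cell death, had the lowest adjusted p-value of the list. It was 5.05, 5.21 and 5.07 in the compound mutant and 4.31, 4.13, 4.45 and 4.22 in WT, a log2 fold change of 0.83 (SE 0.0838, adjusted p = 0.00176, limma), and was called in the fit of only the 2 genotypes (adjusted p = 0.0231), where the other 29 genes of the list were not. Slc2a1, the glucose transporter GLUT1, was 6.09, 6.41 and 5.94 against 5.69, 5.47, 5.55 and 5.47, and rose by 0.60 (adjusted p = 0.0186, limma). Ddit4, an inhibitor of mTOR signaling, was 5.78, 6.20 and 5.85 against 5.23, 5.37, 5.37 and 5.25, and rose by 0.64 (adjusted p = 0.00519, limma).

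The prolyl hydroxylase subunits of collagen synthesis moved together. P4ha1 was 5.45, 5.42 and 5.08 in the compound mutant and 4.68, 4.27, 4.70 and 4.33 in WT, and P4ha2 was 5.06, 5.02 and 4.85 against 4.48, 4.14, 4.47 and 4.17. They rose by 0.82 and 0.66 (adjusted p = 0.0177 and 0.0139, limma). Ankrd37 rose by 0.92 and the carbonic anhydrase gene Car9 by 0.62 (adjusted p = 0.00940 and 0.0380, limma), and Car9 was under the fold limit without replicate 1, at 0.41. The glycolytic enzyme Aldoa and the angiogenic factor Vegfa were above WT in each compound mutant library but below the fold limit, with 0.53 and 0.52 (adjusted p = 0.0130 and 0.0131, limma). Gapdh was 3.36, 3.57 and 3.91 against 3.65, 3.44, 3.72 and 3.52, and the groups overlapped. Further called genes with a known place in this response, named after their values were seen and outside the list, were Ndrg1 (0.90, adjusted p = 0.00239), the lactate exporter Slc16a3 (0.95, adjusted p = 0.0224), Pfkfb3 (0.80, adjusted p = 0.00981) and Ak4 (0.62, adjusted p = 0.0103, all limma). In Cilk1-/- the summed level of the list was between 2672 and 3075, Bnip3 was between 4.74 and 4.98 and Slc2a1 between 5.63 and 5.96.

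**Figure D3:**
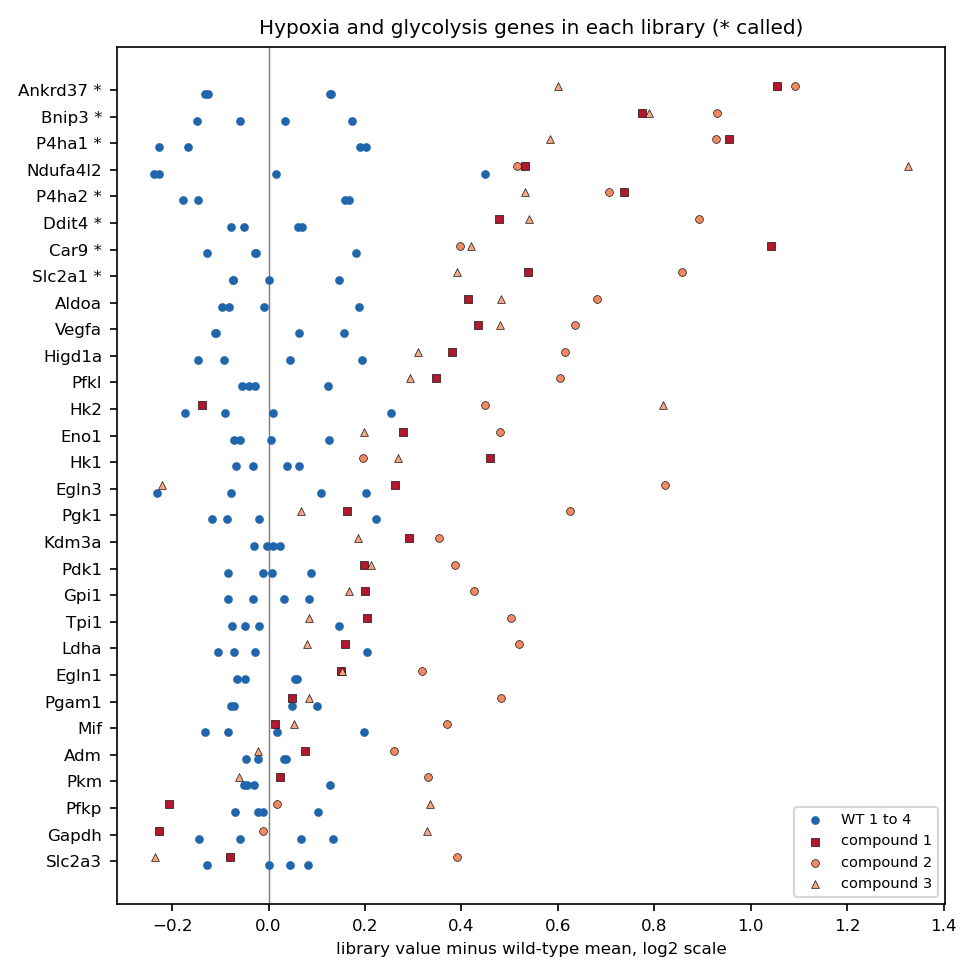
Value of each library minus the WT mean, on the deposited log2 scale, for 30 hypoxia response and glycolysis genes, with called genes starred. Blue points are the 4 WT libraries and red to orange symbols the 3 compound mutant libraries. The compound mutant symbols of the 7 called genes all lie to the right of the WT points, and the median over the 30 genes is 0.27, 0.49 and 0.28 in replicates 1 to 3.

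Summed markers of neurons and cartilage were higher in every compound mutant library than in every WT library, and by far the highest in replicate 1. Of the neuronal markers 28 of 31 had a higher mean in the compound mutant, and of the cartilage markers 17 of 18, where 49.4% of all genes did. Neuronal markers had a median log2 fold change of 0.83 over 31 measured genes, and 0.34 without compound mutant replicate 1. Their summed level was 497 in replicate 1, 148 and 184 in replicates 2 and 3, and between 115 and 136 in WT. In WT, 23 of the 31 had a mean below 1, and 0 were at 0 in every library. Cartilage markers had a median of 1.44 over 18 genes, and 0.44 without replicate 1, with a summed level of 1231 in replicate 1, 166 and 217 in replicates 2 and 3, and 122 to 149 in WT. The collagen of cartilage, Col2a1, was 8.62, 4.88 and 3.82 in the compound mutant and between 3.58 and 3.72 in WT. The aggrecan gene Acan was 5.03, 0.70 and 1.60, and between 0.00 and 0.52 in WT, where it was nearly absent. Markers of olfactory and respiratory epithelium summed to 57.0 in replicate 1 and to 17.7 to 20.7 in the other 6 libraries compared.

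Against these sums, few of the markers were called. In the neuronal list, 2 rose and 0 fell, where 0.615% of all genes rose and 0.633% fell. Tubb3, which encodes a tubulin of neurons, was 6.62, 4.77 and 5.62 in the compound mutant and 4.08, 4.19, 4.43 and 3.96 in WT, with a log2 fold change of 1.5 (SE 0.323, adjusted p = 0.0268, limma) and of 1.03 without replicate 1 (adjusted p = 0.0239). Isl1, a homeobox gene of both neurons and dental epithelium, was 1.97, 1.05 and 1.21 against 0.58, 0.59, 0.35 and 0.30, and rose by 0.95 (adjusted p = 0.0190, limma). Matn4 was the one cartilage marker that rose, by 1.35 (adjusted p = 0.0485, limma), with 6.11, 4.61 and 6.12 against WT values of 4.01 to 4.83, where replicate 2 lay within the WT range, and it was not called without replicate 1 (adjusted p = 0.122). The part of the neuronal and cartilage marker RNA in the called higher genes was not tested.

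Epithelial, mesenchymal and blood markers also differed between the compound mutant libraries. Dental epithelium markers summed to 1235, 1516 and 2128 in compound mutant replicates 1 to 3 and to 1769 to 2151 in WT. Dental mesenchyme markers summed to 1043, 1461 and 1138, and to 1374 to 1526 in WT. Of 24 genes each, Isl1 rose in the epithelial list and 0 passed in the mesenchymal list, where 1.25% of all genes were called. Erythroid markers summed to 1110 in replicate 3 and to 2943 to 3864 in the other 6 libraries. Oral keratinization markers summed to 256 in replicate 3, to 61.5 and 67.1 in replicates 1 and 2, and to 99.0 to 169 in WT. Skeletal muscle markers summed to 21.8 to 22.3 in the compound mutant, and in WT to 22.3 and 22.8 in replicates 1 and 4 but 45.1 and 64.8 in replicates 2 and 3. The Hh target sum was lowest in replicate 1, where the epithelial and mesenchymal sums were lowest too. It lay below WT in replicates 2 and 3 as well. Replicate 2 was also below WT in the epithelial sum but within WT in the mesenchymal sum, and replicate 3 the reverse. The part of these markers in the Hh target levels was not tested.

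Macrophage genes overlapped between the groups in part. The receptor Csf1r, which defines macrophages, was 2.89, 2.43 and 2.94 against 3.08, 2.87, 3.08 and 2.89, and was not called, and C1qa was 3.35, 2.57 and 3.23 against 2.88 to 3.26. Lyz2 and Spi1, also of myeloid cells, were lower in every compound mutant library but under the fold limit, with −0.48 and −0.31 (adjusted p = 0.0469 and 0.0359, limma). The macrophage list summed to 79.0 to 107 in the compound mutant and to 102 to 132 in WT. Of its 22 measured genes, 17 had a lower mean, where 50.6% of all genes did. In this list 1 gene, not reported here, fell and 0 rose, where 0.633% of all genes fell. Without compound mutant replicate 1, 3 fell, where 0.591% of all genes did. Endothelial, pericyte, Schwann cell and bone lists gave 0 called genes, where 1.25% of all genes were called.

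**Figure D4:**
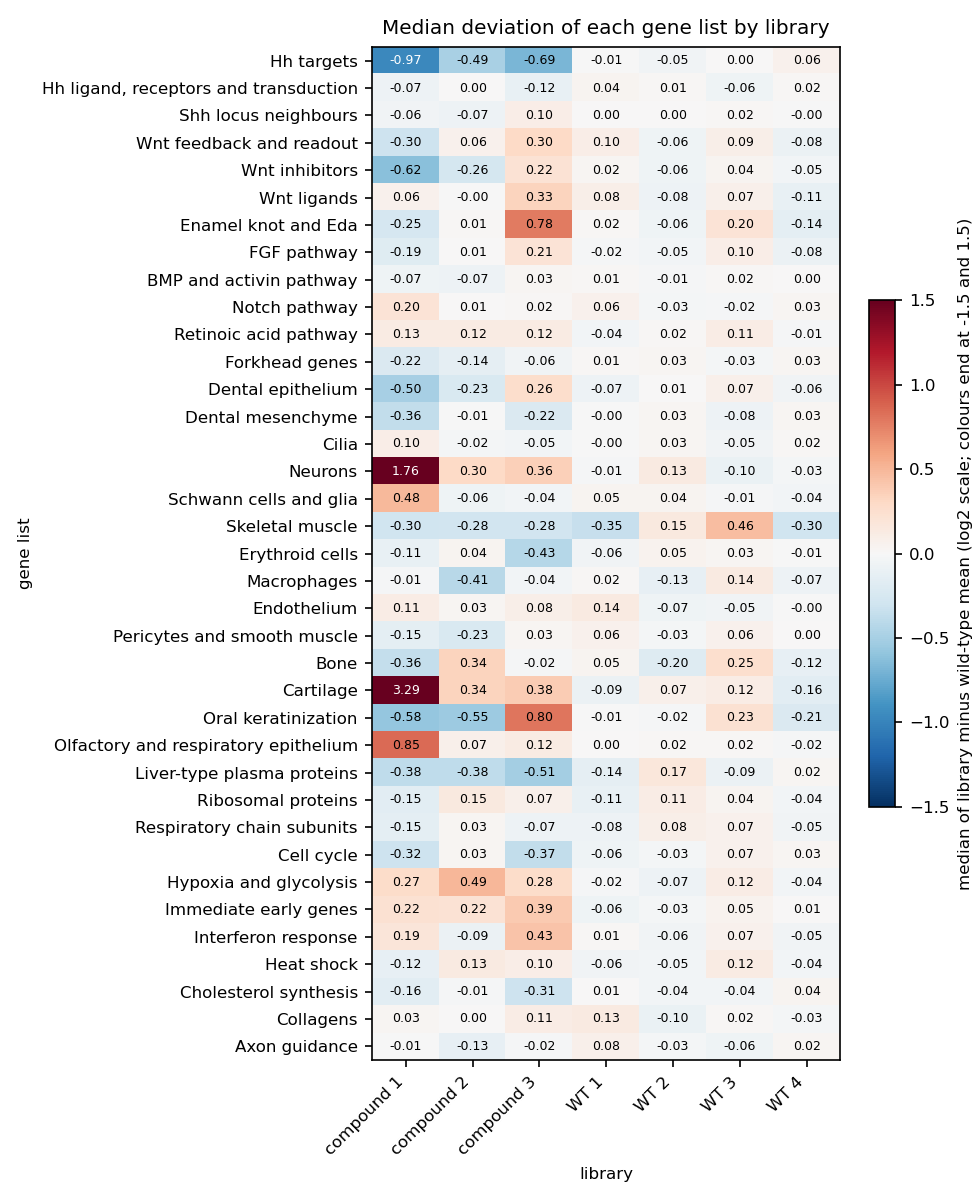
Median over each gene list of a library's value minus the WT mean, on the log2 scale, for the 3 compound mutant and 4 WT libraries, with colours that end at −1.5 and 1.5. Hh targets are at −0.97, −0.49 and −0.69 in compound mutant replicates 1 to 3, hypoxia and glycolysis at 0.27, 0.49 and 0.28, whereas neurons (1.76) and cartilage (3.29) stand out in replicate 1 and oral keratinization (0.80) in replicate 3.

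Some genes of plasma proteins fell, and they varied between the WT libraries. Afp, the fetal plasma protein alpha-fetoprotein, was 0.57, −0.24 and −0.45 in the compound mutant and 1.12, 2.81, 1.11 and 2.40 in WT, a log2 fold change of −1.90 (SE 0.497, adjusted p = 0.0489, limma). Apoa1, an apolipoprotein, was 0.54, −0.10 and −0.19 against 0.97, 1.91, 1.01 and 1.71, and fell by 1.32 (adjusted p = 0.0294, limma). C3, complement component 3, was 0.10, 0.01 and 0.05 against 0.88, 1.59, 0.89 and 1.44, and fell by 1.15 (adjusted p = 0.0139, limma). In all 3 genes WT replicates 2 and 4 were well above WT replicates 1 and 3, and the same split appeared in the bile acid transporter family gene Slc10a4, which was 0.66, 0.53 and 0.41 against 1.54, 2.04, 1.62 and 2.05 and fell by 1.28 (adjusted p = 0.00342, limma). Values below 0, as in Afp and Apoa1, cannot arise from log2(value + 1) of an expression value. Of 8 measured liver-type genes, 2 fell and 0 rose, where 0.633% of all genes fell, and 12 of the list were not measured. Batf3, a transcription factor known from dendritic cells, fell by 1.18 (adjusted p = 0.0103, limma), with 1.89, 2.69 and 2.74 against 3.39, 3.74, 3.79 and 3.53.

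Several of the genes with the highest fold changes were highest in replicate 1. Camk2n1, an inhibitor of the calcium kinase CaMKII, was 4.06, 2.54 and 3.50 in the compound mutant and 2.14, 1.99, 2.15 and 1.79 in WT, and rose by 1.34 (adjusted p = 0.0224, limma). Sall1, a zinc finger repressor, was 2.94, 1.58 and 2.47 against 1.27, 1.07, 1.17 and 0.83, and rose by 1.25 (adjusted p = 0.0223, limma). Cyfip2, a regulator of actin at synapses, was 4.08, 2.89 and 3.12 against 2.28 to 2.45, and rose by 1.01 (adjusted p = 0.0264, limma). In Camk2n1, Sall1 and Cyfip2, as in Tubb3, replicate 1 was the highest library and replicate 2 the nearest to WT, and these 4 genes were also called without replicate 1. Fabp4, a fatty acid binding protein of fat and vessel cells, was 1.74, 1.92 and 2.75 against 1.08, 0.78, 1.60 and 0.87, and rose by 1.05 (adjusted p = 0.0427, limma). The predicted gene Gm7120 rose by 1.17 (adjusted p = 0.00500, limma), with 3.77, 3.99 and 3.47 against 2.35, 2.80, 2.46 and 2.66.

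Some called genes have a near-identical copy with the same coding sequence. How reads were divided between the copies was not tested. Rps27 and Rps27rt encode the same ribosomal protein, from a gene with introns on chr3:90212522-90213651 and a retrotransposed copy on chr9:114982366-114982739. Their coding sequences in GENCODE vM21 (GRCm38) have 255 bases and 0 differences, and the shared sequence is printed because a read from it cannot be assigned to one of the genes by its letters.
Rps27 and Rps27rt: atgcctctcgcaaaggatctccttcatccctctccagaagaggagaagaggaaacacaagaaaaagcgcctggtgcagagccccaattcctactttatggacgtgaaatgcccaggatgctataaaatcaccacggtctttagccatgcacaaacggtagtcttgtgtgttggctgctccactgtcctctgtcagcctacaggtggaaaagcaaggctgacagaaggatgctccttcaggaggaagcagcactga
Rps27 was 8.16, 4.25 and 8.53 in the compound mutant and 3.02, 4.23, 2.81 and 3.01 in WT, whereas Rps27rt was 6.05, 8.97 and 6.34 against 9.35, 9.81, 9.42 and 9.17. Compound mutant replicates 1 and 3 differed from WT, and replicate 2 was close to it. Turned back to the linear scale, Rps27 held 81.4% and 82.1% of the pair's sum in compound mutant replicates 1 and 3, 3.48% in replicate 2 and 0.873% to 1.94% in WT. The sum of both was 350, 519 and 449 in the compound mutant and between 580 and 914 in WT. Their log2 fold changes of 3.71 and −2.32 (adjusted p = 0.0348 and 0.0376, limma) are uncertain as changes of the genes, and neither was called without replicate 1 (adjusted p = 0.0882 and 0.0896).

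Dynlt1c and Dynlt1f, which encode a dynein light chain on chromosome 17, have 342 coding bases with 0 differences. Dynlt1f was 5.72, 5.60 and 5.32 in the compound mutant and 4.54, 3.95, 4.13 and 3.69 in WT, and Dynlt1c was 5.80, 5.65 and 5.46 against 6.01, 6.5, 6.33 and 6.46. Dynlt1f rose by 1.47 and Dynlt1c fell by 0.69 (adjusted p = 0.00442 and 0.0196, limma). Their linear sum was 106, 96.8 and 82.2 in the compound mutant and 85.8, 104, 95.8 and 98.7 in WT, so that the groups overlapped in the sum but not in the members. Dynlt1a and Dynlt1b were not called, with log2 fold changes of 0.01 and 0.14. Of 78 measured cytosolic ribosomal protein genes, Rps27 and Rpl34 rose, where 0.615% of all genes rose. Rpl34 had 6.53, 6.55 and 6.91 against 5.84, 5.95, 5.87 and 5.94 (log2 fold change 0.76, adjusted p = 0.00710, limma).

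**Figure D5:**
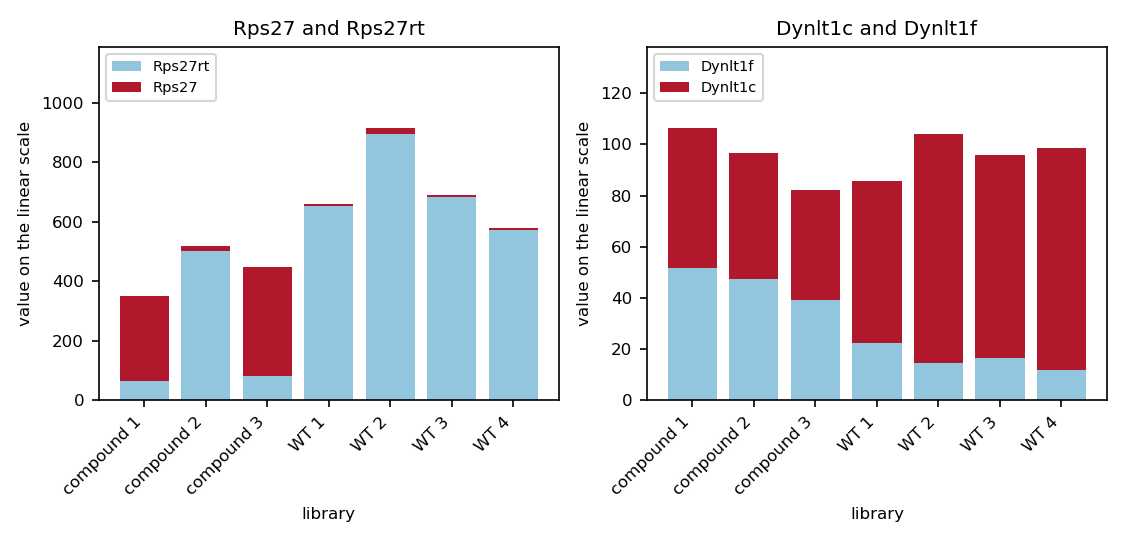
Linear values (2 to the deposited value, minus 1) of Rps27 and Rps27rt, left, and of Dynlt1c and Dynlt1f, right, stacked for each library. Rps27 takes over most of the bar in compound mutant replicates 1 and 3 (81.4% and 82.1%) but not in replicate 2 (3.48%), and the summed bars of Dynlt1c and Dynlt1f overlap between the groups.

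Proliferation genes had slightly lower means. Of 36 cell cycle genes, 32 had a lower mean, where 50.6% of all genes did, and the median was −0.22. Of the 36, 0 fell and Cdkn1a rose, where 0.633% of all genes fell and 0.615% rose. Mki67, the proliferation marker, was 5.05, 5.24 and 5.24 in the compound mutant and 5.57, 5.58, 5.61 and 5.66 in WT, a difference of −0.43 (SE 0.0528, adjusted p = 0.00328, limma) that is under the fold limit. The list summed to 1660, 1877 and 1475 in compound mutant replicates 1 to 3 and to 1785 to 1936 in WT, so replicate 2 was within the WT range. Of 22 cholesterol synthesis genes, 21 had a lower mean and 6 an adjusted p-value under 0.05, where 3.75% of all genes did in that direction, but 0 reached the fold limit. Among these, Lss had a log2 fold change of −0.34 (adjusted p = 0.00967, limma).

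Immediate early genes had 2 called of 23, where 1.25% of all genes were called. Klf2, a transcription factor induced by fluid shear in vessels, was 3.59, 2.97 and 3.14 in the compound mutant and 2.35, 2.38, 2.60 and 2.31 in WT, and rose by 0.82 (adjusted p = 0.00880, limma). Junb, a component of AP-1, was 3.10, 3.11 and 3.69 against 2.53, 2.56, 2.69 and 2.63, and rose by 0.70 (adjusted p = 0.0144, limma). The median of the list was 0.41. In the interferon response list Cmpk2 fell by 0.60, in the axon guidance list Sema7a fell by 0.79, and in the collagen list Col24a1 rose by 0.90 (adjusted p = 0.0197, 0.0161 and 0.0302, limma), each the only call among 22, 39 and 43 measured genes. Col24a1 was not called without replicate 1 (adjusted p = 0.0693). In that fit 3 axon guidance genes were called lower, where 0.591% of all genes were. With 1.25% of all genes called, a single call in lists of this size says little about the list. Of 40 lists, 18 had no called gene, among them Notch (18 measured), retinoic acid (15), heat shock (12) and the respiratory chain (78).

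The calls that held across fits were few. In all, 17 genes were called as reported, in the fit of only the 2 genotypes and with the library set as a term, and those described here were named after their values were seen. Among them, beside Cilk1, Foxf2 and Bnip3, were Tspan11, Adcy7, Ndp, Ncald, Fbn1, Best1, Pld1, St6gal2, 4833424O15Rik, Hmga1, Adrb1, Hist2h4 and 2900009J06Rik. Tspan11, a tetraspanin, was 2.57, 2.42 and 2.50 in the compound mutant and 3.30, 3.25, 3.27 and 3.27 in WT, and fell by 0.78 (SE 0.0491, adjusted p = 6.22e-05, limma). Ndp, whose product norrin is a ligand of the Frizzled-4 receptor, was 1.26, 0.99 and 1.20 against 2.07, 2.39, 2.40 and 2.21, and fell by 1.12 (SE 0.107, adjusted p = 0.00161, limma). Fbn1, the microfibril protein fibrillin-1, was 4.85, 4.75 and 4.65 against 5.45, 5.52, 5.30 and 5.60, and fell by 0.72 (adjusted p = 0.00183, limma). Replicate 1 was close to the other compound mutant libraries in each of these genes.

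Adcy7, an adenylate cyclase that makes cAMP, was 2.28, 2.72 and 2.83 against 3.70, 3.6, 3.75 and 3.69, and fell by 1.08 (adjusted p = 0.00232, limma). Ncald, a calcium sensor, was 1.82, 1.89 and 1.68 against 2.68, 2.93, 2.84 and 2.95, with a log2 fold change of −1.05 (adjusted p = 0.000728, limma). St6gal2, a sialyltransferase, and Pld1, a phospholipase, fell by 0.92 and 0.66 (adjusted p = 0.000814 and 0.00176, limma). St6gal2 was 1.0 to 1.15 in the compound mutant, 1.85 to 2.08 in WT and 1.66 to 1.85 in Cilk1-/-, and it was lower in the compound mutant than in Cilk1-/- (log2 fold change −0.66, adjusted p = 0.00770, limma). Hmga1, a chromatin protein of growing cells, was 4.88, 5.07 and 4.93 against 4.14, 3.93, 4.12 and 4.01, and rose by 0.91 (SE 0.0751, adjusted p = 0.000687, limma). Hist2h4, a histone H4 gene, was 0.94, 1.04 and 0.90 against 0.30, 0.38, 0.30 and 0.35, and rose by 0.63 (adjusted p = 0.00176, limma), with 0.22 to 0.47 in Cilk1-/-. Adrb1, a beta-adrenergic receptor gene, rose by 0.60 (adjusted p = 0.00198, limma), and by 0.55 without replicate 1, which is under the fold limit.

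Entries of small RNAs made up 5.74% of the called genes, 3 lower and 9 higher, counted after their values were seen. Of 422 such entries measured, 2.84% were called, against 1.25% of all genes. Poly-A RNA was sequenced, and each of these entries with an annotated host lies within a longer gene on the same strand. Mir7049, of 60 bases, lies in Samd4b and Pak4, and Mir3572, of 86 bases, in Cnot3, none of which was called, with log2 fold changes of 0.04, 0.04 and −0.01. Mir7049 was not called without replicate 1 (adjusted p = 0.0528). Whether counting used the strand is not stated, and without it reads of overlapping genes cannot be told apart. This touches G530011O06Rik, which fell by 0.75 and overlaps Mid1 on the opposite strand, a gene that fell by 0.74 (adjusted p = 0.00712 and 0.0156, limma). It also touches Gli1, Ankrd37 and Hmga1, which overlap Arhgap9, Ufsp2 and AI413582 on the opposite strand, and these partners had log2 fold changes of −0.12, −0.06 and −0.20.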

How the data were processed

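Poly-A RNA of E14.5 maxillary molar germs was sequenced in 11 libraries. The authors aligned reads to mm10 and, per the submitters' processing notes, used HISAT2 2.0.5 and featureCounts 1.5.0-p3, then computed FPKM. The deposited table holds values of 16755 genes that the authors' sources do not give a unit for, treated here as log2(value + 1) from their range, although 257 genes had a value below 0. No per-sample columns went unused. Depth and counts are not known, so no count model was fitted.

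Libraries were grouped by genotype label. Moderated tests were made with limma 3.58.1 (R 4.3.3, trend and robust) on all 11 libraries of 3 genotypes with no covariate, for compound mutant minus WT, and p-values were adjusted over all 16755 genes (Benjamini-Hochberg). Calls required a fold change of 1.5 or more and an adjusted p-value below 0.05. The test was checked on simulated data with independent libraries, so the check does not cover the correlated libraries seen here. The members and gene lists were chosen with earlier results of these data known. Named genes were Cilk1, 7 further genes that the study's text names, the 10 lowest and 10 highest called genes whose groups did not overlap and that were also called without compound mutant replicate 1, the 3 lowest and 3 highest called genes, called list members and the near-identical copies, with others as examples of a list or marked in the text. Summed levels are sums of 2 to the deposited value, minus 1. Positions came from GENCODE vM21 (matched for 15955 genes) and promoters from RefSeq (GRCm38). Alternatives were the 2 genotypes alone, a replicate block, the library set as a term, another pseudocount (0.1), a mean of at least 1, other moderation and scaling, and each library left out. Figures were drawn with matplotlib 3.10.9. Some genes are not reported here.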

Additional observations from a re-analysis of the deposited data

Results flagged for a closer look

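Of 96 WT groups of 4 libraries that were tested for a library far from the others, 5 stood out, and chance gives about 1 in 20 such groups. Lef1 was 4.48 in WT replicate 1, below the 4.69 to 4.74 of the other WT libraries. Bmp2 was 2.34 in WT replicate 3, above 2.10 to 2.12. Rps27 was 4.23 in WT replicate 2, above 2.81 to 3.02, and near the 4.25 of compound mutant replicate 2. The summed level of the hypoxia and glycolysis genes was 2830 in WT replicate 3, above 2442 to 2473, and still below each compound mutant library. The summed level of the cholesterol synthesis genes was 595 in WT replicate 4, above 573 to 575.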

How the results depend on the processing

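Of 106 lower and 103 higher genes, a fit of only the 2 genotypes called 22 and 12, the library set as a term 13 and 5, a pseudocount of 0.1 278 and 269, and no fold change limit 629 and 473. An unadjusted p-value below 0.05 with the fold limit called 158 and 341. Leaving out 1 library gave 51 to 195 lower and 29 to 476 higher genes. The lower count moved by over 1.5 times without compound mutant replicate 2 (195) or 3 (165) and without WT replicate 2 (57) or 4 (51), and the higher count without compound mutant replicate 2 (476) or 3 (174) and without WT replicate 2 (38), 3 (63) or 4 (29). The cause was not tested. A mean of at least 1 (13028 genes), other moderation, median centring and quantile normalization kept both counts within 1.5 times.

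With the replicate number as a block, 19 genes were lower and 7 higher. Same-numbered compound mutant and WT libraries had deviations that correlated at 0.14, −0.04 and 0.26, and same-numbered WT and Cilk1-/- libraries at −0.74 to −0.89. Whether a shared number marks a pairing is not stated and was not tested.

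Of 52 called named genes, 9 remained called in the fit of only the 2 genotypes, 9 with the block, 4 with the library set, 41 without compound mutant replicate 1 and 23 without WT replicate 4, and 0 reversed under any of the settings. Among genes not called, Shh was −0.92 without compound mutant replicate 3 and turned to 0.51 without compound mutant replicate 1, 0.32 without compound mutant replicate 2, 0.02 and 0.11 without WT replicates 2 and 3 and 0.55 against WT replicate 4 alone, an alternative chosen after seeing the data. Lef1 ranged up to 0.31 without compound mutant replicate 1 and turned to −0.15 and −0.0034 without compound mutant replicates 2 and 3, −0.0047 without WT replicate 1 and −0.028 against WT replicate 4. Dynlt1a ranged up to 0.10 without compound mutant replicate 3 and turned to −0.029 with quantile normalization, −0.037 and −0.03 without compound mutant replicates 1 and 2, −0.01 and −0.04 without WT replicates 1 and 3 and −0.016 against WT replicate 4. Unknown depth leaves the precision of low values unknown.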
